A study of Mus musculus with 42 samples.

Results

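The 7 sirtuin genes, Sirt1 to Sirt7, were described in RNA-seq of the mouse cerebellum under intermittent fasting and after refeeding. They were matched by symbol in both deposited count tables, and all 7 were found among the 35275 genes of each table and passed the filter on low counts in every fit. The libraries came from male mice labelled C57BL/6, each moved at 3 months of age to 1 of 3 feeding regimens for 3 months. Mice of the AL group ate ad libitum, those of the IF16 group were fasted for 16 h each day, and those of the EOD group were fasted for 24 h on alternate days. In 3 further groups (refed AL, refed IF16 and refed EOD) the mice then ate ad libitum for another 2 months, and tissue was taken at 8 rather than 6 months of age. Each group had 5 libraries, 30 in all. The hour of collection relative to feeding is not given in the labels, and the labels do not say that each library came from a separate mouse, so the p-values measure the spread between these libraries. Age and refeeding cannot be told apart between the tables.

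Sirtuins are enzymes that consume NAD+ to remove acetyl and other acyl groups from lysines, or to transfer ADP-ribose, which ties their activity to the supply of that cofactor. SIRT1, SIRT6 and SIRT7 act mainly in the nucleus, SIRT2 mainly in the cytoplasm, and SIRT3, SIRT4 and SIRT5 in mitochondria. In the nervous system SIRT2 is best known as a tubulin deacetylase of myelinating oligodendrocytes, and SIRT1 has been studied for its part in the response to food restriction.

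Total counts per library ranged from 26799825 to 36167435. Markers of the cell types of the cerebellum were present in all libraries: 8 Purkinje cell genes summed to between 6990 and 9389 CPM (counts scaled to library size) and 8 granule cell genes to between 5709 and 6912, with none at 0. Summed choroid plexus markers (11 genes) ranged from 153.9 to 5138 CPM, with 1180 as the lowest value in EOD and 180.4 in AL. Libraries at the end of the regimens also differed in a gradient along gene length, defined as the slope, over all genes tested, of the deviation of log2 CPM from the table mean on log2 gene length. Its AL values lay between -0.158 and 0.0575, its IF16 values between -0.114 and 0.0636 and its EOD values between -0.0159 and 0.139. It was narrower after refeeding (-0.0261 to 0.0416 over the 3 groups). There the refed AL values (-0.0257 to -0.00359) lay wholly below the refed IF16 values (0.00465 to 0.0416), and refed EOD (-0.0261 to 0.00927) overlapped both. Gradient and group therefore cannot be told apart in refed IF16 against refed AL. The values of the gradient are given beside the results that move with it.

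Gene levels were compared as the authors' FPKM, fragments scaled by gene length and library size. Sirt2 was the most abundant sirtuin transcript in 30 of 30 libraries, with a mean of 76.1 ± 3.92 FPKM (SD, n = 30) and 39.1% to 48.2% of the summed sirtuin FPKM of a library. Sirt3, which encodes the main mitochondrial deacetylase, came second in every library with 33.5 ± 3.84 FPKM. Sirt4, Sirt7 and Sirt6 followed at 19.4 ± 2.37, 18.6 ± 2.29 and 16.3 ± 1.86 FPKM. Sirt4 exceeded Sirt7 in 21 of 30 libraries, whereas Sirt7 exceeded Sirt6 in 29 of 30, and these neighbouring pairs were not tested. Sirt5, which encodes a mitochondrial desuccinylase and demalonylase, was sixth in every library at 10.2 ± 1.05 FPKM. Sirt1, the member most studied in fasting, was the lowest in every library at 6.49 ± 0.57 FPKM, 8.57% of the Sirt2 level. The order of Sirt2, Sirt3, Sirt5 and Sirt1 was the same in all 6 groups.

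**Figure D1:**
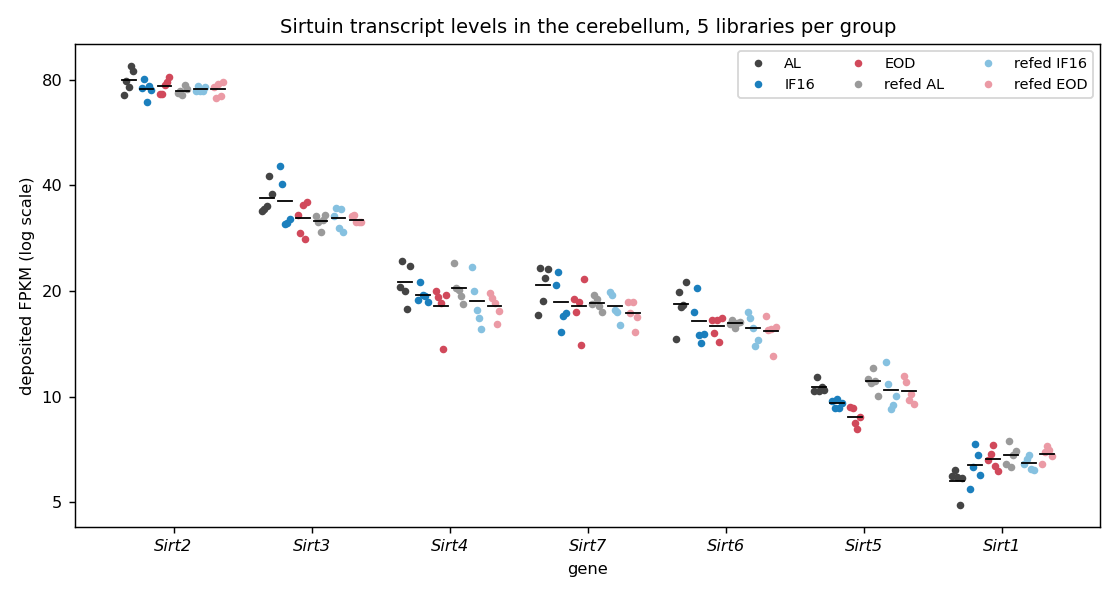
Deposited FPKM (log axis) of the 7 sirtuin genes in the 30 libraries, ordered by mean level. Points are libraries coloured by group and short bars are group means. Sirt2 lies between 69.0 and 87.5 FPKM and Sirt1 between 4.92 and 7.49 FPKM in all groups.

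No sirtuin passed the test in any comparison, at an adjusted p under 0.05 in edgeR's quasi-likelihood test with Benjamini-Hochberg adjustment over all genes. In IF16 against AL, 0 of 7 were called against 0.0483% of the 16577 genes tested (8 genes), and 1 of 7 had an unadjusted p under 0.05 against 9.92% of all genes. In EOD against AL, 0 of 7 were called against 0.0664% of all genes (11 genes), and 3 of 7 (Sirt5, Sirt1 and Sirt4) had an unadjusted p under 0.05 against 14.4% of all genes. Both comparisons use the same 5 AL libraries, so their directions are not independent. Analysed with DESeq2, 0 of 7 were called in IF16 against AL and 1 of 7, Sirt5, in EOD against AL. The fold changes were small. Over the 7 genes the 95% intervals ran from -26.3% to 23.2% in IF16 against AL and from -27.3% to 29.96% in EOD against AL.

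Sirt5 had the smallest p of the family in both fasting regimens. Its level in the AL libraries was 13.9, 15.4, 13.9, 14.98 and 14.6 CPM, in the IF16 libraries 13.4, 12.7, 13.1, 12.6 and 13.3 CPM, and in the EOD libraries 12.6, 12.8, 11.4, 11.5 and 12.1 CPM. Every fasted library therefore lay below every AL library, and only the ranges of IF16 and EOD overlapped. Such a separation downwards was found for 0.694% of all genes in IF16 against AL and for 1.53% in EOD against AL. The mean was 14.6 ± 0.66 CPM for AL (SD, n = 5), against 13.0 ± 0.34 CPM for IF16 and 12.1 ± 0.60 CPM for EOD. The log2 fold change was -0.16 (SE 0.064, unadjusted p = 0.0199, edgeR adjusted p = 0.432) for IF16 and -0.27 (SE 0.064, unadjusted p = 0.000593, edgeR adjusted p = 0.175) for EOD. For EOD this is a difference of -17.1% with a 95% interval from -24.5% to -8.96%. EOD against IF16 gave a log2 difference of -0.11 (SE 0.064, edgeR adjusted p = 0.977). Sirt5 had 342 to 566 counts per library, and its coefficient of variation was 4.505% in AL, 2.62% in IF16 and 4.99% in EOD, where counting error alone gives 4.505%, 4.81% and 5.11%.

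With each library of AL or EOD left out in turn, the Sirt5 log2 fold change for EOD lay between -0.29 and -0.25 (edgeR adjusted p 0.152 to 0.359). In DESeq2 it was -0.27 with an adjusted p of 0.0173, the single setting under which a sirtuin was called.

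After refeeding the Sirt5 groups overlapped. The refed AL libraries held 15.1, 14.8, 16.5, 15.3 and 13.9 CPM, the refed IF16 libraries 16.9, 14.9, 12.8, 13.1 and 14.02 CPM, and the refed EOD libraries 15.5, 14.9, 13.3, 14.04 and 13.1 CPM. The log2 fold changes were -0.07 (SE 0.075, edgeR adjusted p = 0.787) for refed IF16 and -0.09 (SE 0.076, edgeR adjusted p = 0.788) for refed EOD against refed AL. An interaction tested whether the distance from the matching controls was the same before and after refeeding. For Sirt5 it was -0.09 (SE 0.096, edgeR adjusted p = 0.87) under IF16 and -0.17 (SE 0.097, unadjusted p = 0.0816, edgeR adjusted p = 0.502) under EOD, so a difference between the ages or feeding states was not shown.

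Sirt1, which encodes a nuclear deacetylase of histones and of transcription factors such as FOXO proteins and p53, was the one member with fold changes above 0 in both regimens. The AL libraries held 25.8, 27.1, 25.8, 22.5 and 26.5 CPM, the IF16 libraries 24.3, 27.9, 31.6, 29.9 and 26.7 CPM, and the EOD libraries 28.9, 30.4, 32.1, 29.3 and 27.6 CPM. All EOD libraries lay above all AL libraries, which held upwards for 1.36% of all genes, while IF16 overlapped AL. The log2 fold change was 0.22 (SE 0.077, unadjusted p = 0.0124, edgeR adjusted p = 0.314) for EOD, a difference of 16.1% with a 95% interval from 3.75% to 29.96%. For IF16 it was 0.14 (SE 0.077, edgeR adjusted p = 0.554). Without AL replicate 4, the lowest library, the EOD value was 0.17 (edgeR adjusted p = 0.611).

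In the refed groups Sirt1 was at 30.02 ± 2.08, 28.8 ± 1.21 and 30.5 ± 1.39 CPM (refed AL, refed IF16 and refed EOD; SD, n = 5 each), and the 3 ranges overlapped. The log2 fold changes were -0.06 (SE 0.052, edgeR adjusted p = 0.743) for refed IF16 and 0.02 (SE 0.051, edgeR adjusted p = 0.953) for refed EOD. The interaction was 0.19 (SE 0.092, unadjusted p = 0.0434, edgeR adjusted p = 0.685) under IF16 and 0.20 (SE 0.092, unadjusted p = 0.0398, edgeR adjusted p = 0.477) under EOD. Unadjusted p under 0.05 was reached by 7.21% and 10.3% of the 16877 genes in these 2 tests, and 0.0474% and 0.0119% of genes were called, none of them a sirtuin.

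**Figure D2:**
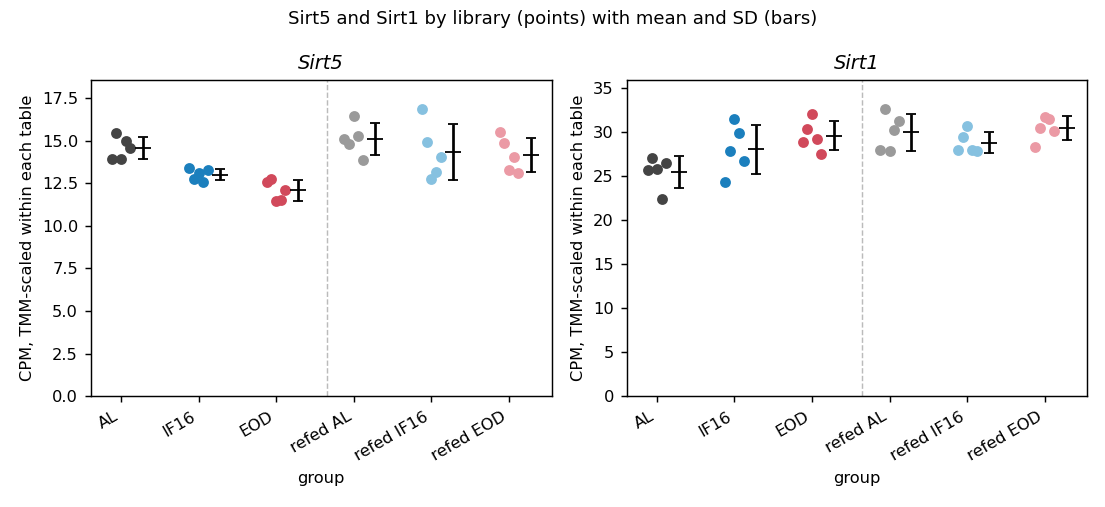
Level of Sirt5 (left) and Sirt1 (right) in CPM by group, with TMM scaling within each table. Points are libraries and the bar beside them gives mean and SD (n = 5), and the dashed line separates the 2 tables. The 5 EOD points of Sirt5 lie between 11.4 and 12.8 CPM, below the AL points at 13.9 to 15.4 CPM, and the refed groups overlap.

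Sirt4, whose mitochondrial product acts on glutamate dehydrogenase and on lipoyl groups, was the other member with an unadjusted p under 0.05. Its level was 36.0, 43.1, 35.3, 32.9 and 42.9 CPM in the AL libraries, 34.0, 37.9, 34.0, 34.3 and 33.5 CPM in the IF16 libraries and 35.5, 34.6, 33.0, 25.6 and 35.3 CPM in the EOD libraries. The groups overlapped, and EOD replicate 4 stood below the rest. The log2 fold change was -0.21 (SE 0.096, unadjusted p = 0.04, edgeR adjusted p = 0.337) for EOD and -0.13 (SE 0.096, edgeR adjusted p = 0.637) for IF16. Without EOD replicate 4 the EOD value was -0.14 (unadjusted p = 0.117, edgeR adjusted p = 0.564), and without AL replicate 2 or AL replicate 5 the IF16 value was -0.078 or -0.083. After refeeding it was -0.17 (SE 0.085, unadjusted p = 0.0675, edgeR adjusted p = 0.621) for refed EOD and -0.11 (SE 0.085, edgeR adjusted p = 0.691) for refed IF16, with values from 28.6 to 42.4 CPM over the 15 libraries.

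Sirt3 showed the widest spread of the family within a group. The IF16 libraries held 66.5, 59.1, 44.0, 45.0 and 47.1 CPM, against 48.5, 49.5, 50.3, 64.1 and 56.4 CPM in AL and 47.5, 43.0, 50.9, 43.0 and 52.9 CPM in EOD. The 3 ranges overlapped, with a coefficient of variation of 19.0% in IF16, 12.2% in AL and 9.51% in EOD. The log2 fold changes were -0.04 (SE 0.12, edgeR adjusted p = 0.912) for IF16 and -0.18 (SE 0.12, edgeR adjusted p = 0.423) for EOD. In refed AL, refed IF16 and refed EOD the coefficient of variation was 4.50%, 6.67% and 1.96%, and the log2 fold changes were 0.04 (SE 0.046) and 0.02 (SE 0.046) for refed IF16 and refed EOD.

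Sirt6 and Sirt7 encode nuclear enzymes, the first a chromatin-bound deacetylase linked to DNA repair and glucose metabolism and the second a nucleolar one linked to ribosomal RNA transcription. Sirt6 was at 27.1, 37.2, 33.4, 35.5 and 40.8 CPM in AL, at 33.0, 38.5, 27.5, 26.6 and 28.8 CPM in IF16 and at 30.8, 28.8, 31.2, 28.3 and 32.1 CPM in EOD. Its log2 fold change was -0.17 (SE 0.11, edgeR adjusted p = 0.59) for IF16 and -0.20 (SE 0.11, unadjusted p = 0.0848, edgeR adjusted p = 0.373) for EOD. Sirt7 was at 54.9, 75.5, 60.3, 73.4 and 76.8 CPM in AL, at 68.5, 73.9, 48.6, 55.0 and 57.2 CPM in IF16 and at 61.5, 57.4, 60.4, 47.8 and 71.8 CPM in EOD. Its log2 fold change was -0.17 (SE 0.13, edgeR adjusted p = 0.649) for IF16 and -0.19 (SE 0.13, edgeR adjusted p = 0.434) for EOD. For both genes AL replicate 1 was the lowest AL library and both fasted groups overlapped AL. In the refed groups both stayed within 24.9 to 32.4 CPM (Sirt6) and 50.5 to 64.1 CPM (Sirt7).

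Sirt2 was at 150.3, 165.7, 158.5, 190.9 and 182.5 CPM in AL, at 160.7, 169.6, 142.2, 160.3 and 159.4 CPM in IF16 and at 151.9, 155.1, 161.9, 174.1 and 174.2 CPM in EOD, with overlapping ranges. The log2 fold changes were -0.10 (SE 0.074, edgeR adjusted p = 0.645) for IF16 and -0.05 (SE 0.074, edgeR adjusted p = 0.697) for EOD. After refeeding the interval was the narrowest of the family, from -3.28% to 7.56% for refed IF16 and from -4.12% to 6.63% for refed EOD against refed AL. The 11 oligodendrocyte markers summed to between 5178 and 7248 CPM with none at 0. Their mean log2 CPM correlated with Sirt2 with r = 0.33 (rho = 0.096) at the end of the regimens and r = 0.59 (rho = 0.59) after refeeding, neither under 0.05 after adjustment over 98 marker relations (adjusted permutation p = 0.51 and 0.18 for r, n = 15 libraries each). In bulk tissue, fewer cells of a type and less RNA per cell cannot be told apart.

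As a family, 6 of 7 members had a log2 fold change below 0 in IF16 against AL, where 51.3% of all genes did, and 6 of 7 in EOD against AL, where 53.3% of all genes did. The median of the 7 was -0.13 in IF16 and -0.19 in EOD, against -0.0062 and -0.018 over all genes tested. The members varied together, so their directions are not separate observations. Sirt3, Sirt7 and Sirt6 also followed the length gradient at the end of the regimens (r = -0.92, -0.80 and -0.71). The EOD median is the value of Sirt7. With the gradient as a covariate, the EOD values of Sirt3 and Sirt7 lay near 0, as given below. The medians were not recomputed with that covariate, and the part of the gradient in them was not tested. After refeeding the median was -0.028 (refed IF16) and -0.069 (refed EOD), with 5 and 4 of 7 below 0 where 51.2% and 49.7% of all genes were. In refed IF16 against refed AL and refed EOD against refed AL, 0 of 7 were called or had an unadjusted p under 0.05 in edgeR, and DESeq2 called 0 of 7. The background was 0.17% of the 16444 genes called and 9.58% at an unadjusted p under 0.05 for refed IF16, and 0.0426% and 8.5% for refed EOD. The 2 regimens did not separate either. In EOD against IF16, 0 of 7 were called or under an unadjusted p of 0.05 (all genes: 0% called, 3.62% unadjusted), and in refed EOD against refed IF16 the same held (0.0182% called, 9.75% unadjusted). The 95% intervals for EOD against IF16 ran from -23.6% to 19.1% over the 7 genes, and for refed EOD against refed IF16 from -14.8% to 13.9%, which leaves room for differences of that size.

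**Figure D3:**
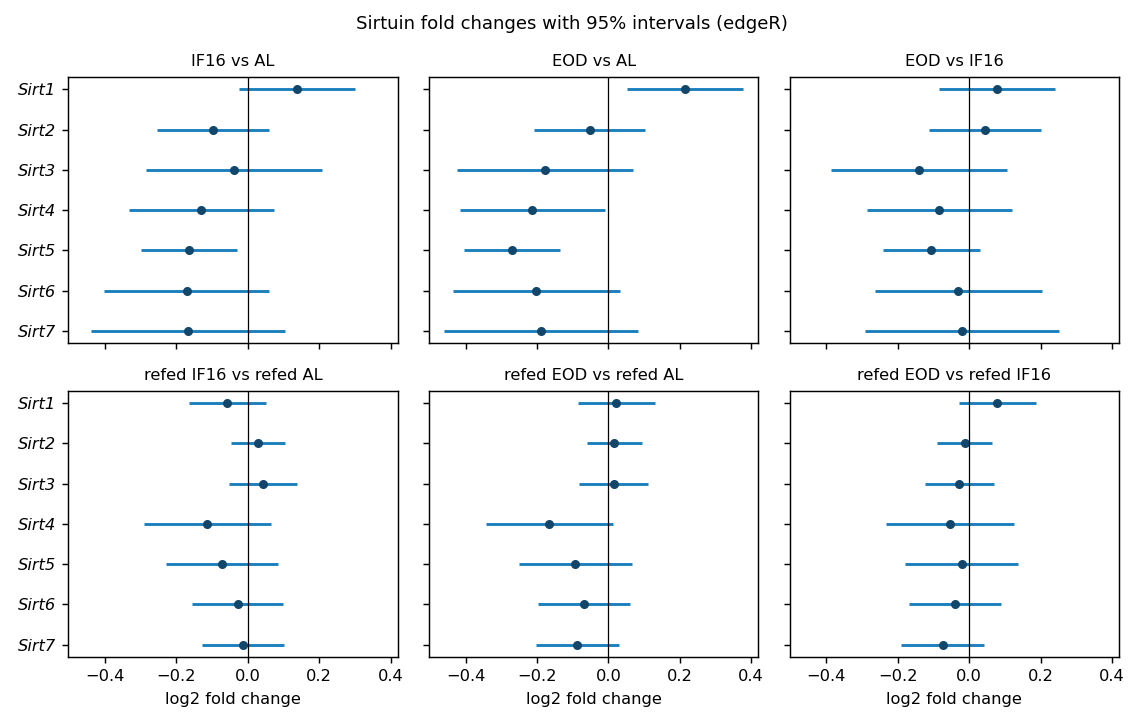
Log2 fold change of each sirtuin gene (point) with its 95% interval (line) from edgeR in the 6 comparisons between groups. The intervals of Sirt5 (IF16 and EOD against AL), Sirt1 and Sirt4 (EOD against AL) leave out 0 before adjustment, and no gene passed an adjusted p under 0.05. Against the controls, intervals are narrower after refeeding for each member except Sirt5.

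The levels of 3 of 7 members, Sirt3, Sirt7 and Sirt6, were related to the length gradient of the library at the end of the regimens by both r and rho. Over the 15 libraries, Sirt3 correlated with the gradient with r = -0.92 (permutation p = 1e-05, the smallest that 100000 resamples can give, adjusted p = 0.00014 over 14 relations) and rho = -0.94 (adjusted p = 0.00014). Sirt7 followed with r = -0.80 (adjusted permutation p = 0.0019) and rho = -0.83 (0.002), and Sirt6 with r = -0.71 (adjusted permutation p = 0.014) and rho = -0.78 (0.0043). Sirt1 ran the other way with r = 0.66 (adjusted permutation p = 0.027), but rho was 0.50 (0.17). Its r was 0.55 within groups, and 0.49 once the 2 libraries most distant from the median gradient were left out. The same exclusion left r at -0.90 for Sirt3, -0.74 for Sirt7 and -0.73 for Sirt6, and r within groups, after subtracting group means, was -0.91, -0.78 and -0.66. Sirt2 had r = -0.58 (adjusted permutation p = 0.067) and rho = -0.65 (0.038), Sirt5 r = -0.50 (0.14) and rho = -0.28 (0.61), and Sirt4 r = -0.42 (0.26) and rho = -0.13 (0.89). After refeeding none of the 7 was under 0.05, with r from -0.36 to 0.060, over a narrower range of the gradient. The gradient is computed from all genes tested, to which the sirtuins themselves contribute 7. The deposited gene lengths are 1367 bases (Sirt5), 1461 (Sirt3), 1794 (Sirt4), 1891 (Sirt6), 2117 (Sirt2), 3274 (Sirt7) and 4430 (Sirt1). The r values with the gradient did not follow this order.

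With the gradient as a covariate in the edgeR fit, the EOD log2 fold change of Sirt5 was -0.25 (adjusted p = 0.262) and that of Sirt1 was 0.15 (adjusted p = 0.577). The values of Sirt3 and Sirt7, -0.18 and -0.19 without the covariate, were 0.015 (adjusted p = 0.967) and -0.0064 (adjusted p = 0.992) with it.

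**Figure D4:**
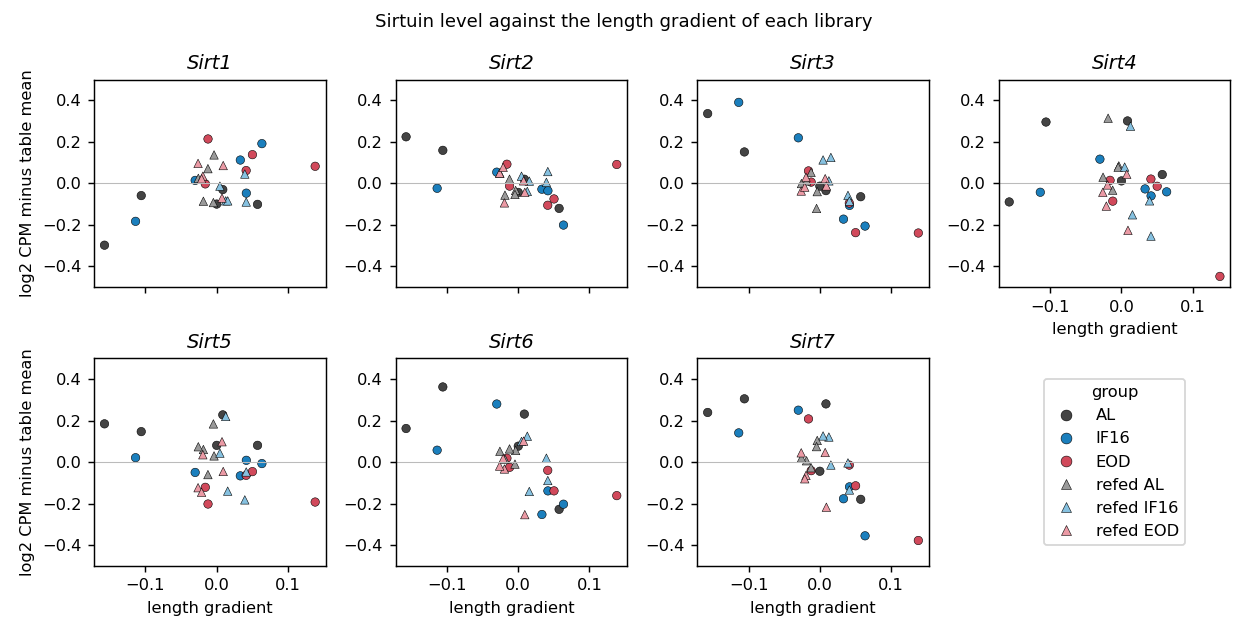
Log2 CPM of each sirtuin gene minus the mean of its table, against the length gradient of the library (slope of log2 CPM deviation on log2 gene length). Circles are libraries at the end of the regimens and triangles libraries after refeeding, coloured by group. Sirt3 and Sirt7 decline along the gradient at the end of the regimens (r = -0.92 and -0.80), and refed libraries cluster near 0.

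The members also varied together. Of 42 pairwise relations (21 per table, adjusted over all), 10 of 21 had an adjusted p under 0.05 for r at the end of the regimens and 4 of 21 after refeeding, and 4 and 3 of these also for rho. Sirt6 and Sirt7 were correlated in both tables, with r = 0.89 (adjusted permutation p = 0.0017, rho = 0.92, adjusted 0.0013) and r = 0.79 (adjusted permutation p = 0.0097, rho = 0.69, adjusted 0.035). Leaving out the 2 libraries farthest from the median Sirt6 level gave 0.87 and 0.72, and r within groups was 0.87 and 0.77. Sirt3 and Sirt7 were correlated at the end of the regimens (r = 0.77, adjusted permutation p = 0.0097, rho = 0.78, adjusted 0.014) but not after refeeding (r = 0.14, adjusted permutation p = 0.81, rho = 0.079), and the difference between the tables was not tested. Without the 2 libraries farthest from the median Sirt3 level the first value was 0.84. Sirt4 was correlated with Sirt7 (r = 0.73, adjusted permutation p = 0.02, rho = 0.80) and with Sirt5 (r = 0.70, adjusted permutation p = 0.02, rho = 0.73) after refeeding. Without the 2 libraries farthest from the median Sirt4 level these values were 0.87 and 0.64. Within the refed groups Sirt4 tended to be lower at higher replicate numbers. From replicate 1 to 5 it fell steadily from 42.4 to 33.3 CPM in refed AL and from 41.3 to 28.6 CPM in refed IF16. In refed EOD it was 35.1 CPM in replicate 1, lowest in replicate 4 (29.1) and 31.6 in replicate 5. The part of this order in the Sirt4 correlations was not tested. At the end of the regimens Sirt4 had r = 0.68 with Sirt7 (adjusted permutation p = 0.02, rho = 0.51, adjusted 0.16) and r = 0.64 with Sirt5 (adjusted permutation p = 0.034, rho = 0.37, adjusted 0.3). Sirt3 and Sirt6 were correlated there (r = 0.70, adjusted permutation p = 0.02, rho = 0.76, adjusted 0.019) and had r = 0.094 after refeeding. Sirt1 and Sirt5 were inversely related at the end of the regimens (r = -0.68, adjusted permutation p = 0.022, rho = -0.74, adjusted 0.019), but within groups r was -0.26, and without the 2 libraries farthest from the median Sirt1 level it was -0.49. Sirt3, Sirt6 and Sirt7 were each related to the length gradient there, and its part in the pair relations was not tested. After refeeding Sirt6 and Sirt7 had r = -0.21 and -0.16 with the gradient.

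Among 12824 protein-coding genes, those most like each sirtuin, by the mean of the Pearson correlations in the 2 tables (15 libraries each, a description without a test), were as follows. Sirt7 was most like Dus3l (r = 0.98 and 0.92) and Prpf40b (0.95 and 0.89). Sirt2 was most like Gpi1 (0.95 and 0.80) and Pkm (0.94 and 0.80), which encode glycolytic enzymes. Sirt6 was most like Rhbdf1 (0.85 and 0.90) and Rps6kb2 (0.81 and 0.92), and Sirt4 most like Pnpla3 (0.81 and 0.93) and Mpg (0.84 and 0.87). Sirt3 was most like Rtfdc1 (0.95 and 0.75) and Timm17b (0.88 and 0.77), the latter a mitochondrial import gene. Sirt5 was most like Lcmt2 (0.84 and 0.76) and Idua (0.81 and 0.73), and Sirt1 most like Tor1aip2 (0.87 and 0.66) and Krr1 (0.81 and 0.69).

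The promoters of 3 members are printed because Sirt5 and Sirt1 had the smallest p in EOD against AL and Sirt3 shares its start region with a neighbour of similar fold change. They are RefSeq windows of GRCm38.p6 from 250 bases before to 50 after the annotated start, 5′ to 3′ on the gene's strand, in lower case with motif matches in capitals. The capitals mark the E-box CACGTG for Sirt1 (chr10:63338986-63339285, minus strand), the GC box GGGCGG for Sirt3 (chr7:140881820-140882119, minus strand) and the CCAAT box CCAAT for Sirt5 (chr13:43365285-43365584, plus strand), each searched on both strands.
Sirt1: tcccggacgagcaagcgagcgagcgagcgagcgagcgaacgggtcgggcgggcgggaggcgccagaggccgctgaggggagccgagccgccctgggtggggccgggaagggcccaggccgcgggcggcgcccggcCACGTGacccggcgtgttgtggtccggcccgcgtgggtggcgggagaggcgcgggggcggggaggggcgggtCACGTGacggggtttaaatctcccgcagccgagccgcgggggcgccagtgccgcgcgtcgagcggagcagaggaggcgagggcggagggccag
Sirt3: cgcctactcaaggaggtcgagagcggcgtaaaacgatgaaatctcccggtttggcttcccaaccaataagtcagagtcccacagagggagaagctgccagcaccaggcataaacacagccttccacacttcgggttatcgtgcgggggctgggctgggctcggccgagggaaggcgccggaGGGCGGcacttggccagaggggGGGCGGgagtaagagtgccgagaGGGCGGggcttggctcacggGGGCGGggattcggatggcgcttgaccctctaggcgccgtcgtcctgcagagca
Sirt5: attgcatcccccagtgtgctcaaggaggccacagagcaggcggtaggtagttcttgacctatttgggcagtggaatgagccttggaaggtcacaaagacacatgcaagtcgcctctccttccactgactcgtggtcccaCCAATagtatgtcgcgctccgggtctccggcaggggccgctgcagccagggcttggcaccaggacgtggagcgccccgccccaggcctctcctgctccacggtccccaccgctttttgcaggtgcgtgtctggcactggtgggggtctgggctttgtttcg
The Sirt1 window holds the E-box at 2 places, which 0.594% of 32817 windows do, and 7.15% hold at least 1. That RefSeq start lies 42669 bases from the gene start in the deposited annotation (chr10:63319005-63381704). RefSeq gives a pair of windows for Sirt3. The printed one lies 440 bases from the deposited start and holds 4 GC boxes, and the other (chr7:140882260-140882559) lies at the deposited start and holds 0. At least 1 GC box is held by 35.6% of windows, and 2 or more by 19.5%. The Sirt5 window holds 1 CCAAT box, as do 37.4% of windows at least once, and its start lies 5175 bases from the deposited start (chr13:43370710-43395202). Several other motifs were searched in every window, and the one marked for each gene was picked among those with a match there. The Sirt1 window also holds 7 GC boxes, the printed Sirt3 window 1 CCAAT box and the Sirt5 window 1 GC box. The matches are letters in a window and no measure of binding.

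Several members overlap or adjoin another gene, and how the counting treated strand and overlap is not given in the sources used here, so reads could be exchanged there. Sirt3 (chr7:140863670-140882309) and Psmd13, a proteasome subunit gene on the other strand, start 341 bases apart and overlap by 342 bases. The start of Psmd13 lies in the Sirt3 window printed above. Their log2 fold changes in EOD against AL were -0.18 each (edgeR adjusted p = 0.423 and 0.432), and in IF16 against AL -0.04 and -0.0045. By the deposited coordinates, Sirt2 overlaps Nfkbib by 778 bases on opposite strands, Sirt7 overlaps Mafg by 124 bases on the same strand and Sirt3 overlaps Ric8 by 61 bases. By the same coordinates Sirt6 starts 743 bases from Ankrd24 and Sirt1 starts 739 bases from Dnajc12. In EOD against AL their log2 fold changes were -0.23 (Nfkbib), 0.24 (Mafg), -0.052 (Ric8), -0.25 (Ankrd24) and -0.012 (Dnajc12). Mafg thus lay on the other side of 0 from Sirt7. None of these neighbours was called in the tests of the regimens. Gm16145, a transcript inside the deposited span of Sirt1, had 0 counts in all libraries. The RefSeq start of Sirt1 lies 42669 bases from the deposited one. The nearness of Dnajc12 and the overlap with Gm16145 therefore hold for the deposited start only.

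Genes around the sirtuins were described by 5 lists. Of 22 genes for NAD+ synthesis and supply 16 were tested, and 0 were called in either regimen against AL, with 2 of 16 at an unadjusted p under 0.05 in IF16 and 4 of 16 in EOD, all higher, against 9.92% and 14.4% of all genes in either direction. Nampt, the rate-limiting enzyme of NAD+ salvage, had 52.0 ± 4.98 CPM under AL, 62.6 ± 6.73 CPM under IF16 and 60.4 ± 3.55 CPM under EOD, with overlapping groups. Its log2 fold change was 0.27 (SE 0.083, edgeR adjusted p = 0.338) in IF16 and 0.22 (SE 0.083, edgeR adjusted p = 0.317) in EOD. Tdo2, which opens the tryptophan route to NAD+, was at 5.38 ± 0.38 CPM in AL and 8.38 ± 1.5 in IF16 without overlap, which held upwards for 0.857% of all genes (a log2 difference of 0.64, SE 0.18, edgeR adjusted p = 0.284). It was at 7.32 ± 2.04 in EOD with overlap. Of 19 other NAD+ users and clearing enzymes 17 were tested and 0 were called. Tiparp, a mono-ADP-ribosyltransferase gene, had 11.7 ± 1.38 CPM under AL, 15.1 ± 1.22 CPM under IF16 and 14.8 ± 1.43 CPM under EOD, with all fasted libraries above all AL libraries (log2 fold change 0.36 and 0.33, edgeR adjusted p = 0.266 and 0.242). Such a separation upwards was found for 0.857% of all genes in IF16 and for 1.36% in EOD against AL.

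Of 25 SIRT1 regulators and substrates all were tested and 0 were called in IF16 or EOD against AL, with 5 of 25 and 10 of 25 at an unadjusted p under 0.05 beside the same 9.92% and 14.4% of all genes. Per2, a clock repressor, had 43.4 ± 13.0 CPM under AL, 84.1 ± 18.3 CPM under IF16 and 78.6 ± 15.3 CPM under EOD (log2 fold changes 0.95 and 0.85, edgeR adjusted p = 0.109 and 0.175). All IF16 libraries lay above all AL libraries, which held upwards for 0.857% of all genes, and EOD overlapped AL. Arntl, a clock activator, had 44.4 ± 2.79 CPM under AL, 36.0 ± 1.52 CPM under IF16 and 39.5 ± 1.87 CPM under EOD (log2 fold changes -0.30 and -0.17, edgeR adjusted p = 0.103 and 0.314). Its IF16 libraries lay wholly below AL, which held downwards for 0.694% of all genes. With the gradient as a covariate, both passed the test in IF16 against AL (edgeR adjusted p = 0.00527 and 0.0169). DESeq2 also called both there (adjusted p = 0.00189 and 0.00137), and it called Per2 in EOD against AL (adjusted p = 0.0122). Of this list DESeq2 called 3 genes in IF16 and 1 in EOD, where it called 90 and 128 among all genes.

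Among 20 mitochondrial sirtuin substrates 19 were tested. Mlycd, malonyl-CoA decarboxylase, had the smallest p of this list in IF16 against AL (log2 fold change -0.25, edgeR adjusted p = 0.517).

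The 11 zinc-dependent deacetylases, which remove acetyl groups without NAD+, had 0 called in either regimen and 0 of 11 and 3 of 11 at an unadjusted p under 0.05 (all genes: 9.92% and 14.4%). Hdac11 had the smallest p in EOD (log2 fold change -0.23, edgeR adjusted p = 0.329) and Hdac7 in IF16 (-0.17, edgeR adjusted p = 0.554). The median log2 fold change in EOD against AL was 0.0036 for NAD+ synthesis, 0.11 for the other NAD+ users, 0.022 for SIRT1 regulators and substrates, 0.042 for mitochondrial substrates and -0.029 for the zinc-dependent deacetylases, beside -0.19 for the sirtuins. These medians come from the fit without the length gradient as a covariate, and the sirtuin median is the value of Sirt7, which followed that gradient. In the refed comparisons 0 genes of the 5 lists were called.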

How the data were processed

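RNA-seq of mouse cerebellum was analysed in 30 libraries. The authors' deposited tables give integer counts for 35275 genes, in 1 table of 15 libraries for the regimens and 1 of 15 for refeeding. They also deposited FPKM values, recomputed here from count, length and library total (largest relative difference 5e-12 for genes with at least 10 counts). The submitters' processing notes name STAR 2.5, HTSeq 0.6.1, DESeq2 2 and mm10. The handling of strand and the annotation release are not given in the sources used here. The 12 chromatin immunoprecipitation and input samples were not analysed here. No value column was without a sample.

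Differences were tested on the counts with edgeR 4.0.16 (quasi-likelihood test, TMM, filterByExpr) in R 4.3.3, with 1 fit per table and a joint fit of 30 libraries for the interactions. A gene was called at a Benjamini-Hochberg adjusted p under 0.05, over all genes tested. Standard errors come from the F statistic and intervals are 95%. CPM values are TMM-scaled within a table, and log2 CPM used a prior count of 2. Correlations over libraries used two-sided permutation tests with 100000 resamples. Totals ranged from 26799825 to 36167435 counts. Over 60 pairs of libraries within groups, chi-square per degree of freedom ranged from 4.25 to 135, so none agreed within sampling noise. The fits were tested on simulated data.

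Named genes were the 7 sirtuins, every gene of 5 related lists called in any test or with the smallest p of its list in IF16 or EOD against AL, the 2 genes most like each sirtuin, and genes overlapping a sirtuin or starting within 1000 bases of its deposited start. The values of a gene named for 1 regimen are also given for the other. A gene that this rule names is not reported here. Members and lists were chosen with earlier results of these data known. The relations with marker means and the promoters to print were chosen after the main results were seen. Alternatives were RLE size factors, DESeq2 1.42.0, other filters, only the groups compared, a replicate block, the length gradient and marker means as covariates, and leaving out each library. Genes were matched to RefSeq (GRCm38.p6) promoters by symbol, and all 7 sirtuins were found.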

Additional observations from a re-analysis of the deposited data

Results flagged for a closer look

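In 3 of 42 groups of 5 libraries (7 genes in 6 groups), 1 library stood apart from the other 4 by Dixon's test at the 95% level, where chance gives about 1 in 20. AL replicate 4 had 22.5 CPM of Sirt1, below the others at 25.8 to 27.1 CPM. IF16 replicate 2 had 37.9 CPM of Sirt4, above the others at 33.5 to 34.3 CPM. EOD replicate 4 had 25.6 CPM of Sirt4, below the others at 33.0 to 35.5 CPM, and it also held the lowest Sirt7 and Sirt3 values of the EOD group (47.8 and 43.0 CPM). AL replicate 4 and EOD replicate 4 also held the lowest and the highest length gradient of the 30 libraries, -0.158 and 0.139. The part of that gradient in these values was not tested.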

How the results depend on the processing

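Over all settings and the 8 tests, the number of sirtuins called was 0 in 177 of 178 recomputations. The exception was DESeq2 in EOD against AL, which called 1 sirtuin, Sirt5 (log2 fold change -0.27, adjusted p = 0.0173). DESeq2 also called 128 genes in that comparison where edgeR called 11, and 90 against 8 in IF16 against AL. The cause was not tested. Leaving out each library in turn gave 0 called sirtuins in every comparison (range 0 to 0). Of 1246 recomputed sirtuin fold changes, 1186 kept their direction and their side of the threshold, 1 passed it and 59 changed sign, 52 of them with an original value within 1 SE of 0. Sirt5 in EOD against AL kept its sign and an unadjusted p under 0.05 in 20 of 20 alternatives, Sirt1 in 19 of 20 and Sirt4 in 14 of 20. Of 890 recomputed list counts 23 changed, the largest count being 3. With the length gradient as a covariate, 62 rather than 8 genes were called in IF16 against AL. In refed IF16 against refed AL 0 rather than 28 were called. Refed AL and refed IF16 did not overlap in the gradient, so gradient and group cannot be told apart there. All 42 group levels stayed within their SD under another scaling. Of 168 recomputed relations, 136 kept their sign with a small change in r. The other 32 changed sign or moved further in r.

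The replicate numbers did not pair the libraries by the rule that every pair exceeds 0.1: the correlation of deviations did so in 3 of 15 same-numbered pairs of the regimens (range -0.53 to 0.32) and in 8 of 15 after refeeding (-0.055 to 0.43), where 14 of 15 were above 0, and a library correlated best with its own number in 13 of 60 combinations. With the replicate block 0 sirtuins were called in each of the 8 tests, and Sirt5 in EOD against AL was at -0.27 (edgeR adjusted p = 0.308). Sirt4 was at -0.16 (unadjusted p = 0.00362, edgeR adjusted p = 0.165) in refed EOD and -0.12 (unadjusted p = 0.0249, edgeR adjusted p = 0.282) in refed IF16 against refed AL with the block. Over all genes the block changed the calls from 11 to 4 in EOD against AL, from 28 to 95 in refed IF16 against refed AL and from 7 to 45 in refed EOD against refed AL.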

Other observations

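Of 98 relations between a sirtuin and the mean log2 CPM of a marker list (n = 15 libraries per table), 5 had an adjusted permutation p of 0.047 for r, and 0 had an adjusted p under 0.05 for both r and rho. At the end of the regimens Sirt3 was higher in libraries with higher microglia markers (r = 0.77, rho = 0.66, 0.71 without the 2 most distant libraries) and lower with higher granule cell markers (r = -0.72, rho = -0.76, -0.59 without those). Sirt1 ran against the microglia markers (r = -0.72, rho = -0.60, -0.60 without those). After refeeding Sirt4 ran against oligodendrocyte markers (r = -0.73, rho = -0.76, -0.70 without those) and against astrocyte and Bergmann glia markers (r = -0.76, rho = -0.76, -0.64 without those). Sirt4 also tended to be lower at higher replicate numbers in the refed groups, and the part of that order in these relations was not tested. The same relations were not under 0.05 after adjustment in the other set of libraries. After refeeding Sirt3 had r = 0.23 with microglia markers and 0.32 with granule cell markers, and Sirt1 had -0.031 with microglia markers. At the end of the regimens Sirt4 had r = 0.089 with oligodendrocyte markers and -0.63 with astrocyte and Bergmann glia markers. Summed microglia markers (8 genes, none at 0) ranged from 122.2 to 178.3 CPM over the 30 libraries. Among the libraries of the regimens, AL replicate 4, AL replicate 5 and IF16 replicate 1 held the highest mean microglia marker levels (4.04, 3.98 and 3.89 log2 CPM). They also held the lowest length gradients there (-0.158, -0.106 and -0.114). Sirt3 and Sirt1 had r = -0.92 and 0.66 with that gradient, and its part in the microglia and granule cell relations was not tested.

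The promoter window of Sirt1 had a GC content of 79.0%, against a median of 52.7% over all 32817 windows.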
